A study of Mus musculus with 4 samples.

Results

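A set of 5 genes of glucose handling was followed across 4 renal cortex arrays: G6pc and Slc37a4 of glucose output, Akr1b3 of the polyol pathway, Txnip, and Pkm of glycolysis. They were taken by gene symbol, 1 probe each, and are 5 of the 9077 genes that could be named on the array. The probe-to-gene table of the platform named 4 of them, and the Akr1b3 probe was named through its RefSeq transcript accession. The genes were chosen with their values on these same arrays in view, so their differences are given as descriptions, with no test.

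Total RNA was converted to cRNA carrying biotin and hybridised to CodeLink bioarrays, which are read in 1 colour after binding of Cy5-streptavidin. Each group had 1 array. DM-WT was streptozotocin-diabetic ICAM-1+/+ cortex, ND-WT was nondiabetic ICAM-1+/+ cortex, DM-KO was streptozotocin-diabetic ICAM-1-/- cortex, and ND-KO was nondiabetic ICAM-1-/- cortex. All mice were male, on a C57BL/6J background and 20 weeks of age. At 8 weeks of age the diabetic mice received streptozotocin at 200 mg/kg intraperitoneally, a toxin taken up by pancreatic beta cells, and were kept in the study only if their blood glucose was high after it. Nondiabetic mice received the buffer alone, and kidneys were taken 12 weeks after injection. The ICAM-1-/- mice carry a germline deficiency of intercellular adhesion molecule 1, through which white cells bind the vessel wall, and the Icam1 transcript was not analysed here. The labels give 5 mice per group but do not say whether an array holds 1 mouse or a pool. A difference between 2 arrays can therefore be set against the error between spots, but not against the spread between mice.

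The proximal tubule of the kidney cortex makes glucose from lactate, glutamine and other precursors. The last step is shared by G6pc, the catalytic subunit of glucose-6-phosphatase in the endoplasmic reticulum, and Slc37a4, the transporter that brings glucose-6-phosphate into that compartment; insulin is known to repress G6pc through FoxO factors. Akr1b3 is mouse aldose reductase, which reduces glucose to sorbitol, an osmolyte of the kidney medulla and the first product of the polyol pathway studied in diabetic complications. Txnip binds thioredoxin and restrains glucose uptake, and its promoter is a known target of the glucose-sensing factors MondoA and ChREBP, which act as dimers with Mlx. Pkm encodes the M1 and M2 forms of pyruvate kinase, which complete glycolysis by making pyruvate, while the related Pklr is the form of proximal tubule and liver.

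The promoters of Txnip and G6pc are shown because they carry the best known sequence elements of this group: the paired carbohydrate response element of Txnip and the FoxO-type letters of G6pc. Both are the 250 bases before the RefSeq transcript start on GRCm38.p6, plus strand, read 5′ to 3′. The Txnip promoter lies at chr3:96557707-96557956 and the G6pc promoter at chr11:101367466-101367715. Capitals mark, in Txnip, CACGAG followed after any 5 bases by CACGAG again, and TGTTTT or, for the minus strand, its reverse complement AAAACA in G6pc.
Txnip: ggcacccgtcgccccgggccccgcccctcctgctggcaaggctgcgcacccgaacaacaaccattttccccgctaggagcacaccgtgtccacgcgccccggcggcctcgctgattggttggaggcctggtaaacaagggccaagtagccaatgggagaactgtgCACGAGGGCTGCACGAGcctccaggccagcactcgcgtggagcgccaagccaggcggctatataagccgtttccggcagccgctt
G6pc: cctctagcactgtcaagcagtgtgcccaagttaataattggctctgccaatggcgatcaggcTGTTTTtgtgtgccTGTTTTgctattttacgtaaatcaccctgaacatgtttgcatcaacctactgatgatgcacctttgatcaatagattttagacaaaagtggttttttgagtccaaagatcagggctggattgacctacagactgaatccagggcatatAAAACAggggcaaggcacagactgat
The paired CACGAG letters of Txnip, with the 5 bases between them, ran from -85 to -69 relative to the start, and were written down from this promoter, so their match there is no finding. On either strand they occurred in 1 of 32851 RefSeq promoter windows of this length, or 0.00304%. In G6pc, TGTTTT ran from -188 to -183 and from -174 to -169, and its reverse complement from -26 to -21. TGTTTT or its reverse complement occurred in 6518 of the 32851 windows, or 19.8%, so its presence sets G6pc apart little. Among the members' own 7 windows, 3 held TGTTTT or its reverse complement, in G6pc and Slc37a4. The promoter table held 7 windows for 4 of the 5 genes, without Akr1b3. A match of letters describes the sequence and is no measured binding site.

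Between 62.8% and 66.2% of the 10032 gene probes were usable on an array, and median background-subtracted intensity was 37.7 on DM-WT, 43.5 on ND-WT, 46.3 on DM-KO and 44.3 on ND-KO. Spots marked empty by the scanner software were treated as not above background. Levels below are log2 of intensity after background correction and quantile normalization between the 4 arrays. Repeated spots of the same bacterial control probe varied with an SD of 0.11 on the log2 scale within an array, over 14 to 16 such probes with usable spots, and the SD of a difference between 2 arrays from this source was 0.15 to 0.16. These SDs were taken on log2 of background-subtracted intensity, with no offset, and the probes' median intensity was 238 on DM-WT, 432 on ND-WT, 514 on DM-KO and 499 on ND-KO. This error leaves out the mice, the RNA extraction and the labelling.

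G6pc was high in 1 group only: the nondiabetic wild-type cortex. Its background-subtracted intensity was 983 in DM-WT against 2212 in ND-WT, and 1018 in DM-KO against 1164 in ND-KO. On the normalized log2 scale these were 10.21 in DM-WT against 11.07 in ND-WT, and 10.01 in DM-KO against 10.16 in ND-KO. The other three arrays lay within 0.20 of each other on that scale. In ICAM-1+/+ mice the diabetic array was lower by a log2 difference of -0.86, so that ND-WT stood 1.82-fold over DM-WT, and G6pc ranked 19 from the bottom of 6055 genes measured on both arrays. In ICAM-1-/- mice the log2 difference between diabetic and nondiabetic cortex was -0.16, the size of the spot error, at rank 696 from the bottom of 6339 genes, and -0.25 in the authors' value table.

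Set by genotype, the same array stood out. ND-KO was lower than ND-WT by a log2 difference of -0.91 for G6pc, with ND-WT 1.88-fold over ND-KO, at rank 9 from the bottom of 6258 genes. Between DM-KO and DM-WT the log2 difference was -0.20, a little over the spot error, and with each array scaled to its median in place of quantile normalization (median scaling) it was -0.09, under it. The diabetes difference in ICAM-1-/- minus that in ICAM-1+/+ mice was 0.71 for G6pc, rank 21 from the top of 5914 genes measured on all 4 arrays. Since all these contrasts but DM-KO against DM-WT and DM-KO against ND-KO use the ND-WT array, they are not separate evidence.

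Signal around the G6pc spot did not shift in the same way. The median difference DM-WT minus ND-WT over 27 measured probes within 3 rows and columns of it was -0.07, and the lowest among them was -0.27. Between ND-KO and ND-WT the neighbours' median was -0.06.

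Proximal tubule markers were lower in diabetic cortex in both genotypes, and their part in the G6pc difference was not tested. Of 12 such markers on the array, all were usable on all 4 arrays. Of these 12, 10 were lower in DM-WT than in ND-WT, with a median log2 difference of -0.18, and 10 of 12 were lower in DM-KO than in ND-KO, with a median of -0.12. Their summed normalized intensity was 23488 in DM-WT against 27444 in ND-WT, and 25130 in DM-KO against 27223 in ND-KO. In whole cortex, fewer cells of a type and less RNA per cell cannot be told apart.

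**Figure D1:**
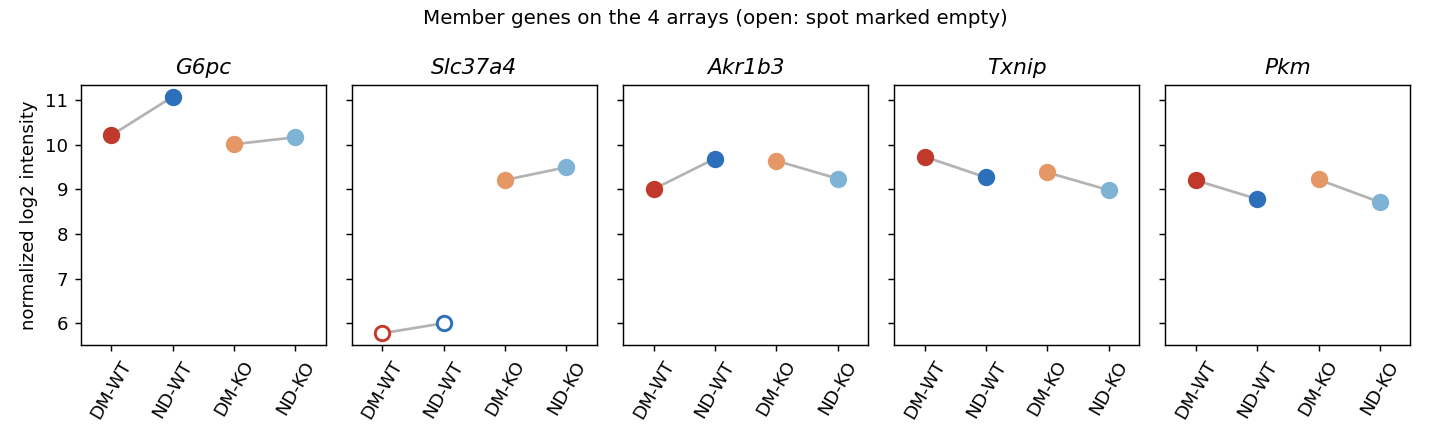
Normalized log2 intensity (y axis) of each of the 5 genes on the 4 arrays (x axis), 1 point per array, with open points for spots marked empty and grey lines joining the 2 arrays of a genotype. G6pc is high in ND-WT at 11.07, Txnip and Pkm are higher in the diabetic array of each genotype, Akr1b3 moves in opposite directions in the 2 genotypes, and Slc37a4 was marked empty on both ICAM-1+/+ arrays.

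Slc37a4, the transporter that works with G6pc, could be compared between diabetic and nondiabetic cortex in ICAM-1-/- mice alone. Its background-subtracted intensity was 565 in DM-KO against 720 in ND-KO, or 9.21 against 9.49 on the normalized log2 scale. The log2 difference of -0.29, a fold of 0.821, ranked 175 from the bottom of 6339 genes. It was larger than the spot error, which is 1 SD of a difference, 0.15 to 0.16, and was not tested against it. The G6pc difference in this pair had the same sign but only the size of that error. Nothing is therefore read from the shared direction. With the spot median in place of the spot mean, a setting chosen after the data were seen, it was -0.13.

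On both ICAM-1+/+ arrays the Slc37a4 spot was marked empty, with background-subtracted intensities of 5.19 in DM-WT and 14.5 in ND-WT. Taken at face value the ICAM-1-/- arrays would be at least 9.46-fold higher in the diabetic pair, and at least 11.2-fold higher in the nondiabetic pair. These bounds set the bright array's level against the higher of the dim spot's own level and the lowest level among usable probes, after normalization.

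On DM-WT the spots around Slc37a4 lost signal with it, and on ND-WT a part of them did. The spot lies in row 4 of the upper block, in column 48, the last of that block. Of 12 probes within 3 rows and columns that were usable on both ICAM-1-/- arrays, 12 were marked empty on DM-WT and 4 on ND-WT. All 12 gave under 50% of their DM-KO intensity on DM-WT, and 5 gave under 50% of their ND-KO intensity on ND-WT. Over the 8 neighbours measured on both nondiabetic arrays, the median ND-KO minus ND-WT difference was 0.03 on the log2 scale, with a highest value of 3.56. Sat1, 2 rows away in the same column, had 2.50 in DM-WT against 22.9 in ND-WT, and 714 in DM-KO against 857 in ND-KO, with background subtracted. Atp5g1, further down the column in row 12, was empty on DM-WT alone. It had 6.61 in DM-WT against 974 in ND-WT, and 1970 in DM-KO against 1662 in ND-KO. Sat1 was likewise not marked empty on ND-WT, although it lay at 22.9 there.

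Over the whole of column 48 in the upper block, 36 probes had at least 100 units on both ICAM-1-/- arrays. Of these, 17 were empty on DM-WT and 1 on ND-WT. Slc37a4 is itself among the 36, and it was the 1 probe empty on ND-WT. Their median ratio of DM-WT to DM-KO intensity was 0.0587, against 0.798 for the 1457 such probes in columns 1 to 43. For ND-WT over ND-KO the median ratio was 0.960 in column 48 and 1.02 in columns 1 to 43. The array position and the genotype cannot be told apart for Slc37a4, and no genotype difference is drawn for it.

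**Figure D2:**
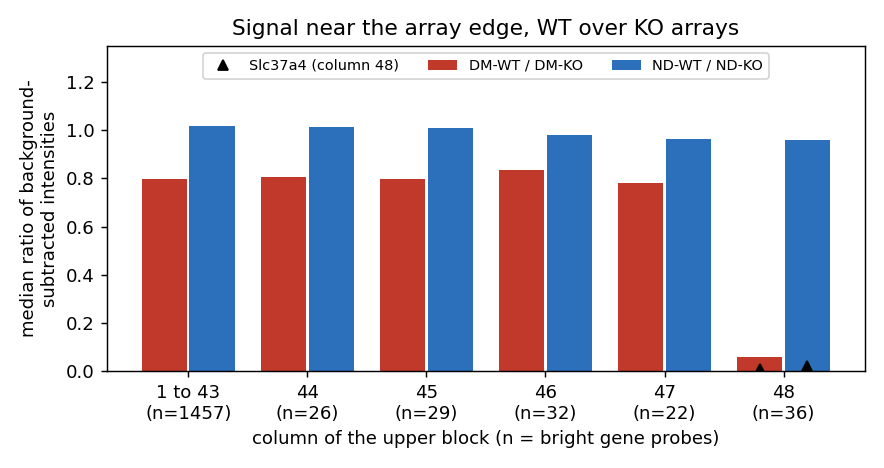
Median ratio of background-subtracted intensity (y axis, linear), DM-WT over DM-KO and ND-WT over ND-KO, by column of the upper block (x axis), for gene probes with at least 100 units on both ICAM-1-/- arrays, with triangles at the ratios of Slc37a4. The DM-WT over DM-KO bar is at 0.0587 in column 48, where Slc37a4 lies, and at 0.798 in columns 1 to 43.

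Akr1b3, aldose reductase, was lower in diabetic than in nondiabetic ICAM-1+/+ cortex and higher in diabetic than in nondiabetic ICAM-1-/- cortex. Its background-subtracted intensity was 396 in DM-WT against 821 in ND-WT, and 783 in DM-KO against 591 in ND-KO. The normalized log2 levels were 9.00 in DM-WT against 9.69 in ND-WT, and 9.64 in DM-KO against 9.24 in ND-KO. ND-WT and DM-KO were thus the high arrays, and differed from each other by no more than the spot error.

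In ICAM-1+/+ mice the log2 difference of Akr1b3 was -0.68, with ND-WT 1.61-fold over DM-WT, at rank 38 from the bottom of 6055 genes. In ICAM-1-/- mice it was 0.40, or 1.32-fold, at rank 101 from the top of 6339. The second minus the first was 1.09, at rank 8 from the top of 5914 genes. By genotype, Akr1b3 was 1.56-fold higher in DM-KO than in DM-WT, a log2 difference of 0.64, while ND-KO was lower than ND-WT by a log2 difference of -0.45. With 1 array per group, this opposite movement was not tested.

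Around the Akr1b3 spot, 23 measured neighbours had a median DM-WT minus ND-WT difference of 0.03, with a lowest value of -0.73. In the ICAM-1-/- pair 22 neighbours had a median of 0.04. At least 1 neighbouring probe therefore differed as much as Akr1b3 between the ICAM-1+/+ arrays, though the neighbourhood as a group did not shift.

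The closest relatives of Akr1b3 gave signals near background. Akr1b8, a reductase induced by growth factors, was at 6.25 in DM-WT against 6.16 in ND-WT and 6.31 in DM-KO against 6.27 in ND-KO on the log2 scale. Akr1b7, an androgen-responsive relative, was at 6.19 in DM-WT against 6.10 in ND-WT, where its spot was empty, and 6.11 in DM-KO against 6.16 in ND-KO. How far these probes detect each other's transcripts was not tested.

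Markers of collecting duct and medulla, where aldose reductase is known to be abundant, did not move with Akr1b3 in ICAM-1+/+ mice. Their summed normalized intensity over 7 genes was 2521 in DM-WT against 2228 in ND-WT, and 2744 in DM-KO against 1900 in ND-KO. Between the ICAM-1+/+ arrays 5 of the 7 were higher in DM-WT, with a median log2 difference of 0.07. Between the ICAM-1-/- arrays 5 of 6 measured were higher in DM-KO, with a median of 0.15, and Aqp2, the vasopressin-regulated water channel, had a log2 difference of 0.91. In that pair the marker sum and Akr1b3 were both higher in the diabetic array. The sum weighs Aqp2 most, the brightest of the markers, at a log2 level of 10.59 in DM-KO against 9.69 in ND-KO. The other measured markers differed less: Aqp3, Scnn1b and Scnn1g by 0.15 each, Slc4a1 by 0.18 and Fxyd4 by -0.02. The part of the markers in the Akr1b3 difference was not tested.

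Txnip was higher in diabetic cortex in both genotypes, by a similar amount. Its background-subtracted intensity was 674 in DM-WT against 601 in ND-WT, and 636 in DM-KO against 481 in ND-KO. After normalization the log2 levels were 9.73 in DM-WT against 9.27 in ND-WT, and 9.38 in DM-KO against 8.98 in ND-KO. The diabetic array was the higher of each pair, but DM-KO lay close to ND-WT, so the diabetic and nondiabetic levels of the 2 genotypes nearly meet.

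The log2 difference of Txnip was 0.46, or 1.38-fold, in ICAM-1+/+ mice, at rank 165 from the top of 6055 genes. It was 0.40, or 1.32-fold, in ICAM-1-/- mice, at rank 105 from the top of 6339 genes. The ICAM-1-/- difference minus the ICAM-1+/+ difference was -0.07, under the spot error. Txnip was lower in ICAM-1-/- than in ICAM-1+/+ cortex, with a log2 difference of -0.35 between DM-KO and DM-WT and -0.28 between ND-KO and ND-WT. With median scaling the first of these was -0.22. The ICAM-1+/+ difference depended in part on scaling: with median scaling it was 0.25. Neighbouring spots of Txnip had medians of 0.01 between the ICAM-1+/+ arrays, over 25 probes, and -0.01 between the ICAM-1-/- arrays, over 27.

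Pkm, like Txnip, was higher in both diabetic arrays, and its level depended little on genotype. Its background-subtracted intensity was 456 in DM-WT against 411 in ND-WT, and 568 in DM-KO against 393 in ND-KO. Normalized log2 levels were 9.20 in DM-WT against 8.78 in ND-WT, and 9.22 in DM-KO against 8.71 in ND-KO. Both diabetic arrays lay above both nondiabetic arrays.

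The log2 difference of Pkm was 0.42, or 1.34-fold, in ICAM-1+/+ mice, at rank 210 from the top of 6055 genes, and 0.51, or 1.42-fold, in ICAM-1-/- mice, at rank 53 from the top of 6339 genes. Between genotypes it was 0.02 for DM-KO minus DM-WT and -0.07 for ND-KO minus ND-WT, both under the spot error. With median scaling the ICAM-1+/+ difference was 0.23. Neighbouring spots of Pkm had medians of 0.02 between the ICAM-1+/+ arrays, over 30 probes, and 0.04 between the ICAM-1-/- arrays, over 31. One probe cannot tell the M1 and M2 transcripts of Pkm apart here, since the probe's position was not used.

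Macrophage and leukocyte markers, from cells in which the M2 form is known to prevail, were also higher in both diabetic arrays. All 8 that were measured were higher in DM-WT than in ND-WT, with a median log2 difference of 0.70, and all 8 were higher in DM-KO than in ND-KO, with a median of 0.31. Over the 10 on the array their summed normalized intensity was 1943 in DM-WT against 1228 in ND-WT, and 1584 in DM-KO against 1288 in ND-KO. The part of these cells in the Pkm level was not tested.

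**Figure D3:**
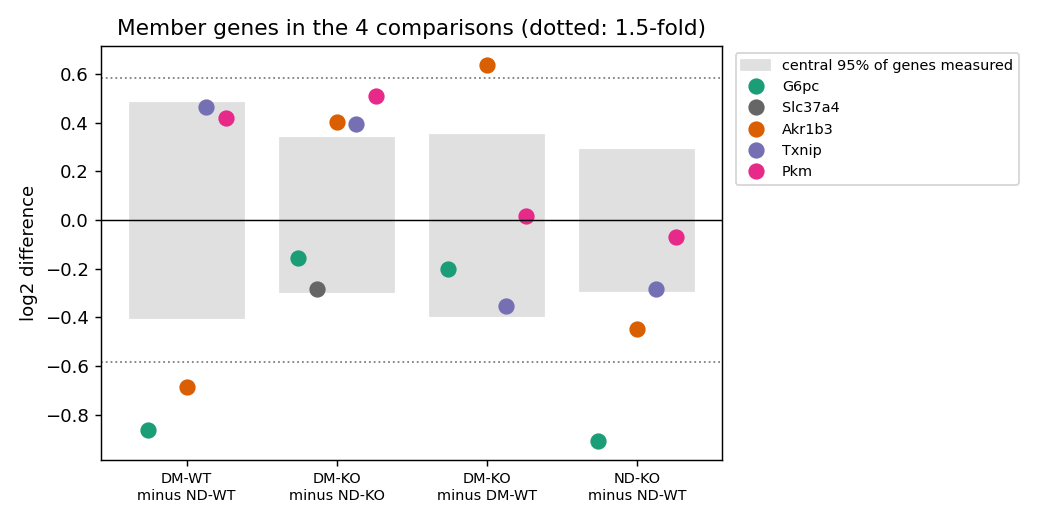
Log2 differences (y axis) of the 5 genes in the 4 comparisons between arrays (x axis), with grey bands for the central 95% of all measured genes and dotted lines at 1.5-fold. G6pc is lowest in DM-WT minus ND-WT at -0.86 and ND-KO minus ND-WT at -0.91, and Akr1b3 has opposite signs in the 2 diabetes comparisons.

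Read against all genes measured, the counts of members past 1.5-fold were these. In DM-WT against ND-WT, 2 of 4 measured members were at least 1.5-fold lower, G6pc and Akr1b3, where 0.875% of all genes were, and 0 were as much higher, where 1.75% of all genes were. In DM-KO against ND-KO, 0 of 5 were at least 1.5-fold higher and 0 as much lower, where 0.536% and 0.505% of all genes were. In DM-KO against DM-WT, 1 of 4, Akr1b3, was at least 1.5-fold higher, where 0.769% of genes were, and 0 were as much lower, where 1.06% were. In ND-KO against ND-WT, 1 of 4, G6pc, was at least 1.5-fold lower, where 0.447% of genes were, and 0 were as much higher, where 0.176% were. Since the members were picked on these values, nothing is read from these shares. The central 95% of genes ran from -0.40 to 0.48 in DM-WT minus ND-WT, which held Txnip and Pkm but not G6pc and Akr1b3. In DM-KO minus ND-KO it ran from -0.30 to 0.34, which held G6pc and Slc37a4 but not Akr1b3, Txnip and Pkm. That depended on the genes and the setting. Among genes with a log2 level between 9 and 10 it ran from -0.48 to 0.43, which held Akr1b3 and Txnip. With an offset of 16 its upper end was 0.43 over all genes, with Akr1b3 and Txnip inside at 0.42 each. In the authors' value table its upper end was 0.48, with Txnip at 0.34 and Pkm at 0.47 inside.

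Other genes of glucose output had no common direction that held under every scaling. Of 14 other measured genes of glucose output and gluconeogenesis, 10 were higher and 4 lower in DM-WT than in ND-WT, with a median log2 difference of 0.17, where the median of all genes was 0.00. In DM-KO against ND-KO 11 were higher and 3 lower, with a median of 0.04. With median scaling the medians were -0.09 and -0.01. Pck1, the cytosolic phosphoenolpyruvate carboxykinase that commits precursors to glucose, was at 12.79 in DM-WT against 12.63 in ND-WT, and 11.56 in DM-KO against 11.98 in ND-KO. Pck1 was lower in ICAM-1-/- than in ICAM-1+/+ cortex, with log2 differences of -1.24 in the diabetic pair and -0.64 in the nondiabetic pair. G6pc was likewise lower in the nondiabetic pair, at -0.91, but differed by only -0.20 in the diabetic pair.

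Fbp2, the muscle-type fructose-bisphosphatase, was at 7.91 in DM-WT against 7.21 in ND-WT, and 7.86 in DM-KO against 7.50 in ND-KO. Slc16a1, a lactate and pyruvate transporter, was at 8.24 in DM-WT against 7.85 in ND-WT, and 7.96 in DM-KO against 7.22 in ND-KO. Both were higher in each diabetic array, opposite to G6pc. Slc25a10, the mitochondrial dicarboxylate carrier, had log2 differences of -0.39 in ICAM-1+/+ and 0.08 in ICAM-1-/- mice.

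Regulators of glucose output had a median log2 difference of 0.18 over 6 measured genes in ICAM-1+/+ mice and of 0.03 over 11 in ICAM-1-/- mice. Neither direction held throughout: the first was -0.03 with empty spots kept, and the second -0.01 with empty spots kept and -0.02 with the edge columns left out. Foxo1, the insulin-restrained activator of G6pc, had differences of -0.17 and -0.15 in those pairs. Cebpb had 0.34 and 0.05, and Ppara 0.17 and -0.07. For Cebpb and Ppara the difference was the larger in size in the ICAM-1+/+ pair, which was not tested. The Foxo1 differences were nearly equal and about the size of the spot error. Foxo1 was dim, at 6.33 in DM-WT against 6.50 in ND-WT, and 6.35 in DM-KO against 6.50 in ND-KO. Hnf4a, the regulator past 1.5-fold in the ICAM-1-/- pair at 0.93, lies in the edge columns and was empty on DM-WT.

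Other genes of the polyol and fructose pathway differed less than Akr1b3. The median over 5 measured genes besides Akr1b3 was 0.07 in DM-WT against ND-WT, and over 6 it was 0.04 in DM-KO against ND-KO, but -0.15 and -0.04 with median scaling. Khk, ketohexokinase, which spends the fructose the pathway makes, had log2 differences of -0.20 and 0.06 in the ICAM-1+/+ and ICAM-1-/- pairs, the same signs as Akr1b3 but smaller. Akr1a1, aldehyde reductase, had 0.18 and 0.05. The fructose carrier Slc2a5 had -0.10 and 0.08, and the urate carrier Slc2a9 had 0.07 and -0.07.

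Genes of osmolyte accumulation, in which sorbitol made by Akr1b3 has a share, had a median of 0.00 over 4 measured genes in ICAM-1+/+ and 0.02 over 5 in ICAM-1-/- mice. Slc5a3, the inositol carrier, had differences of 0.13 and 0.01, and Slc6a6, the taurine carrier, -0.09 and 0.02. Hspa4l, a chaperone induced by hypertonicity, had -0.04 and 0.20, and Slc38a2, an amino acid carrier, 0.05 and -0.02. All 4 were smaller in size than Akr1b3 in both pairs.

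Around Txnip, 2 genes of the thioredoxin system were higher and 4 lower in each diabetes pair, with medians of -0.05 in ICAM-1+/+ and -0.01 in ICAM-1-/- mice. Mlx, the dimer partner of the glucose-sensing factors, was lower in the diabetic array of both genotypes, by log2 differences of -0.23 and -0.27, while Txnip was higher. Txnrd1, cytosolic thioredoxin reductase, had 0.08 and 0.23. Txnl1, a thioredoxin-like protein, had -0.15 and -0.00.

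Glycolysis went with Pkm in ICAM-1+/+ mice. Of 18 other measured genes, 17 were higher and 1 lower in DM-WT than in ND-WT, with a median log2 difference of 0.28, and 14 were higher and 4 lower in DM-KO than in ND-KO, with a median of 0.12. Pfkp, a phosphofructokinase, was at 8.61 in DM-WT against 7.93 in ND-WT, and 8.61 in DM-KO against 8.27 in ND-KO. Eno1, enolase, had differences of 0.48 and 0.25, Pgam1, phosphoglycerate mutase, 0.31 and 0.44, and Pgam2, its muscle form, 0.42 and 0.25. These genes were named for the size of their diabetes differences, and all were higher in both diabetic arrays. The 4 that were lower in DM-KO were Pklr at -0.02, Pfkfb3 at -0.03, Ldhb at -0.04 and Eno3 at -0.04. Thick limb and distal tubule markers, summed over 7 genes, had a normalized intensity of 11421 in DM-WT against 8066 in ND-WT. In the ICAM-1-/- pair the sum was 8959 in DM-KO against 8370 in ND-KO. The sum weighs its brightest genes most, Calb1 and Umod. On the log2 scale Calb1 was at 12.45 in DM-WT against 11.52 in ND-WT, and 11.88 in DM-KO against 11.16 in ND-KO. Between the ICAM-1+/+ arrays 6 of the 7 were higher in DM-WT, with a median log2 difference of 0.16 that was -0.02 with median scaling, and between the ICAM-1-/- arrays 4 of 7 were higher in DM-KO, with a median of 0.08. Calb1, the calcium-binding calbindin of the distal tubule, had differences of 0.93 and 0.72. Pvalb had 0.69 and 0.36, and Slc12a3, the thiazide-sensitive salt carrier, 0.53 and 0.32. The other markers differed less or went the other way. Kcnj1 had 0.12 and 0.08, Cldn16 0.11 and -0.02, Umod 0.16 and -0.44, and Egf -0.24 and -0.23. The part of these cells in the glycolysis values was not tested.

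The glycolysis median for the ICAM-1+/+ pair was 0.15 with median scaling and 0.24 in the authors' value table. Median scaling moved bright genes as a whole: the 561 genes with a log2 level between 9 and 10 had a median DM-WT minus ND-WT difference of -0.20 under it and 0.01 under quantile normalization. The median of all genes moved to -0.08.

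For the fate of pyruvate, the product of Pkm, the median over 7 measured genes was 0.05 in ICAM-1+/+ and 0.04 in ICAM-1-/- mice, and -0.09 and -0.01 with median scaling. Pdk4, the kinase that shuts pyruvate dehydrogenase, was at 7.04 in DM-WT against 6.45 in ND-WT, and 6.19 in DM-KO against 6.05 in ND-KO. Slc16a7, a pyruvate carrier, had differences of 0.49 and 0.24, and of the dehydrogenase subunits, Dld had -0.19 and 0.07 and Pdha1 -0.11 and -0.08. Pentose phosphate genes had medians of 0.05 and 0.11, the first of which was -0.06 with median scaling, led by Tkt, transketolase, at 0.25 and 0.29. Medians for glycogen were -0.05 and -0.06, for the hexosamine pathway -0.06 and -0.00, and for glucose entry 0.13 and 0.06.

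**Figure D4:**
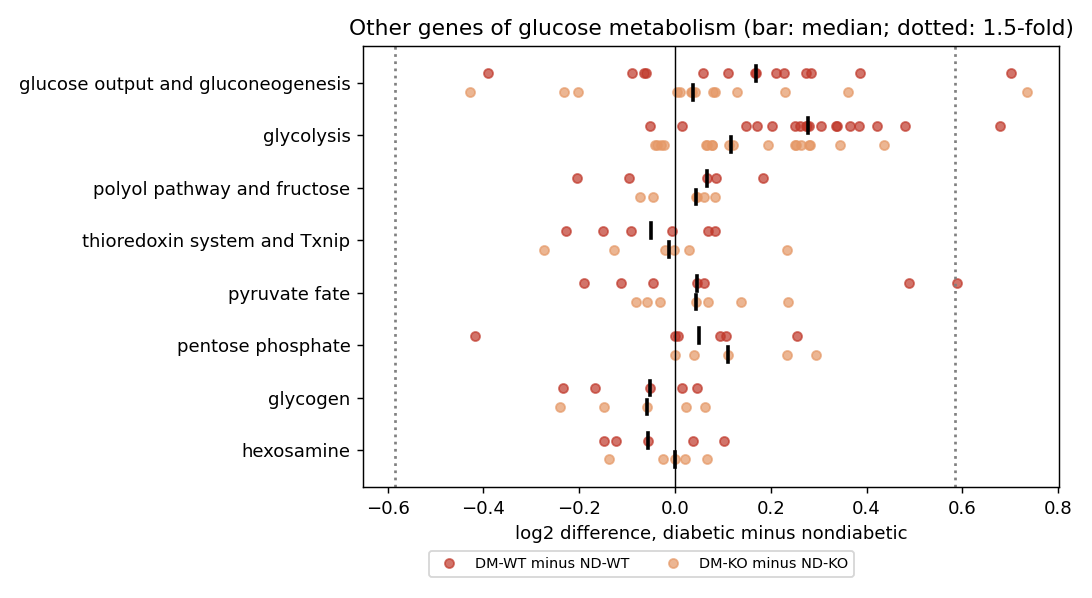
Log2 difference, diabetic minus nondiabetic (axis), of each measured gene of 8 pathway lists other than the 5 members, with list medians, for the ICAM-1+/+ and the ICAM-1-/- pair. Glycolysis genes lie mostly above 0, with medians of 0.28 and 0.12, while the other lists drawn have medians between -0.06 and 0.17.

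Diabetes could be fitted with genotype as a second factor, over all genes, with 1 residual degree of freedom. That residual is the departure from additive effects of diabetes and genotype. It does not measure the spread between mice, so the p-values below do not either. The limma additive fit with Benjamini-Hochberg adjustment called 1 of 6512 genes at an adjusted p under 0.05, or 0.0154%, and 0 of the 85 tested pathway genes besides the members. At an unadjusted p under 0.05, 17 of the 85, or 20.0%, passed, against 832 of all 6512, or 12.8%. In the authors' value table the limma fit passed 11 of 80 pathway genes at that unadjusted p, or 13.8%, against 13.2% of all genes. With the edge columns 44 to 48 of the upper block left out, 95 of 6219 genes were called, or 1.53%, and 0 of 80 pathway genes, with 19 at an unadjusted p under 0.05, or 23.8%, against 14.9% of all genes. For Pfkp the limma adjusted p was 0.226, for Pgam1 0.213, for Slc16a1 0.213 and for Fbp2 0.218. The members' own values were left out of testing. Because the pathway lists were chosen with earlier results of these data known, nothing is read from their shares against all genes.

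Genes with the most similar pattern over the 4 arrays were named by Euclidean distance between log2 levels centred on each gene's own mean, among 5442 named genes measured on all arrays. For G6pc these were Hpd, which degrades tyrosine, at 0.15, Ugt2b37, a glucuronosyltransferase, at 0.18, and Nap1l5 at 0.28, and these 3 were the ones within 0.3. Hpd was at 8.43 in DM-WT against 9.33 in ND-WT, and 8.42 in DM-KO against 8.42 in ND-KO, so it too was high in ND-WT alone. For Akr1b3 they were Car2, a carbonic anhydrase, at 0.09, Adcy6, an adenylate cyclase, at 0.11, and Myo9b at 0.16, with 8 genes within 0.3. Car2 was at 9.64 in DM-WT against 10.21 in ND-WT, and 10.21 in DM-KO against 9.83 in ND-KO.

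Txnip and Pkm had common patterns. For Txnip, Cyp2d26 lay at 0.10, Pgam2 at 0.11 and Chka at 0.11, and 145 genes lay within 0.3. For Pkm, Ptp4a1 lay at 0.06, Cdk1 at 0.09 and Aen at 0.10, and 261 genes lay within 0.3. These distances rest on 4 arrays, which share their normalization.

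The cortex label fitted the markers in part. All 12 proximal tubule markers and all 7 of thick limb and distal tubule were usable on all 4 arrays, and so were 6 of 7 of collecting duct and medulla. Of 4 podocyte markers 1 was usable on all arrays, and Nphs1 and Podxl were empty on all. The 3 skeletal muscle markers, Acta1, Ckm and Tnnt3, were empty on all 4 arrays. Of 5 adipocyte markers on the array, Adipoq and Cfd were usable on ND-KO alone, Cidea on none, and Fabp4 and Lpl, which other cells also express, on all 4. Fabp4 was at 10.26 in DM-WT against 9.64 in ND-WT, and 9.80 in DM-KO against 9.71 in ND-KO. Lpl was at 10.27 in DM-WT against 10.73 in ND-WT, and 9.97 in DM-KO against 11.19 in ND-KO. The part of adipocytes in the members' values was not tested.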

How the data were processed

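Total RNA of renal cortex was hybridised to 4 CodeLink arrays, 1 per group, per the labels. The deposited scanner tables hold, on a linear scale and as scanned, the mean intensity of a spot and the median of the background around it, per the file headers, with a quality score for usable, empty or poor spots, also deposited. The authors' series value table holds intensity equal to spot mean minus background divided by 1 constant per array (38.1, 43.9, 46.9 and 45.0 for DM-WT, ND-WT, DM-KO and ND-KO), for 100% of compared probes within 0.1%; how the constant was set is not given in the sources used here. Medians of its columns, in the same order, were 0.930, 0.926, 0.930 and 0.929; values follow signal without centring by gene.

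With limma 3.58.1 (R 4.3.3), every spot entered normexp background correction at offset 50, and log2 values were taken, freed of control and bacterial spots, and quantile-normalized; poor spots were set to missing. A probe counted as measured where usable. Probes of 1 gene were averaged (129 genes). Of 10032 gene probes, 8923 were named by the platform table, 286 by accession through RefSeq, 1 had several genes and 822 none. The limma fit (diabetes plus genotype, genes measured on at least 2 arrays) was tested on simulated data. Pathway genes named are up to 4 per list with the largest mean absolute diabetes difference, and 3 like genes per member. A gene that this rule picks is not reported here. The members and lists were chosen with earlier results of these data known. Precision is limited by the number of arrays, 1 per group.

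Alternatives were no background correction, offset 16, median scaling, the value table, no filter on empty spots, edge columns left out, limma trend, no genotype term and, chosen after seeing the data, the spot median and centring on neighbouring spots.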

Additional observations from a re-analysis of the deposited data

Results flagged for a closer look

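Akr1b3 was lower in DM-WT than in ND-WT and higher in DM-KO than in ND-KO. Its diabetes difference in ICAM-1-/- mice minus that in ICAM-1+/+ mice was 1.09 on the log2 scale, and with 1 array per group the difference was not tested.

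Pck1 was higher in DM-WT than in ND-WT, by a log2 difference of 0.17, and lower in DM-KO than in ND-KO, by -0.43. The second minus the first was -0.59, and this difference was not tested. The ICAM-1+/+ difference of Pck1 was close to the spot error of 0.16.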

How the results depend on the processing

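The signed differences of the members above the spot error kept their direction under every alternative run. Median scaling moved those of the ICAM-1+/+ pair, DM-WT minus ND-WT, to -1.03 for G6pc, -0.87 for Akr1b3, 0.25 for Txnip and 0.23 for Pkm. Counts of genes past 1.5-fold depended more on the setting. For DM-WT over ND-WT, higher counts (106) became 171 with an offset of 16, 69 with median scaling and 215 in the value table, and lower counts (53) became 93, 124 and 189, and 90 with no filter. For DM-KO over ND-KO, higher counts (34) became 61 with the offset and 87 in the value table, and lower counts (32) 54 and 107. For DM-KO over DM-WT, higher counts (47) became 74, 108 and, with no filter, 93, and lower counts (65) 112 and 159. For ND-KO over ND-WT, higher counts (11) became 26, 67 and, with no filter, 18, and lower counts (28) 52 and 81. The limma count of 1 higher and 0 lower became 52 and 43 without edge columns and 30 and 52 with median scaling, and the higher count was 0 with limma trend, without background correction, without the genotype term, with the offset, in the value table and with the spot median. The cause of these changes was not tested. No paired analysis was possible because the groups have 1 array each and the labels give no replicate numbers; the limma fit takes genotype as a factor. The value table gave no Akr1b3 value.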
